A study of Mus musculus with 6 samples.

Results

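Heterotrimeric G proteins are the switches that sit under G protein-coupled receptors. An alpha subunit holds GDP at rest, exchanges it for GTP when a receptor is engaged, and parts from a paired beta and gamma subunit, after which the alpha subunit and the beta-gamma pair each act on enzymes and channels. The alpha subunits fall into classes by what they act on: Gs stimulates adenylyl cyclase, Gi/o inhibits it and Gq/11 activates phospholipase C beta, while G12/13 forms a class of its own. Regulators of G protein signalling (RGS) carry a domain that speeds up GTP hydrolysis by the alpha subunit and so ends the signal. In lymphocytes, Gi-coupled chemokine and sphingosine-1-phosphate receptors guide migration, and Rgs1 and Rgs16 are known as brakes on responses to chemokines.

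The genes described here are the rows named as an RGS gene with a number, a G protein gamma subunit, or a listed alpha or beta subunit. There were 53 such genes among 23183 gene symbols: 15 alpha, 5 beta and 12 gamma subunits and 21 RGS genes. The rule is one of names and set no limit on any value. The family was, however, put forward with results of the same comparison in view, Rgs1 among them, so fold changes and adjusted p-values of the members are a description and are not read as support for anything about the family as a whole.

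Expression was measured by RNA sequencing in wild-type C57BL/6N mouse T helper 9 (Th9) cells, a CD4 T helper type that makes IL-9. Naive splenic CD4 T cells were activated in culture with anti-CD3e on the plate and anti-CD28 in solution, each at 1 µg/ml. All cultures also received 10 ng/ml of IL-4, TGF-β1 at 2 ng/ml, and an antibody to IFN-γ at 10 µg/ml. The 3 control libraries come from cells without, and the 3 SPC libraries from cells with, 30 µM sphingosylphosphorylcholine (SPC, d18:1), a lysophospholipid, both taken on day 3. The titles number the libraries 1 to 3 in each group and the series text speaks of 3 independent experiments, while the number of mice behind a library is not given in the sources used here.

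Total counts lay between 22002050 and 33049997 per library. The 9 CD4 T cell markers examined (among them Cd3e, Cd4 and Lck) were all well above the filter on low counts, with a summed level of 2051 to 2177 CPM in control and 2053 to 2294 CPM in SPC libraries. Markers of other cells were low: the 5 markers of endothelium and stroma were highest, through Pecam1 (6.60 to 11.5 CPM in control and 5.32 to 6.78 CPM with SPC), with Dcn at 0. The 5 B cell markers summed to 3.35 to 3.59 CPM in control and 3.68 to 4.77 CPM with SPC, with Ms4a1 at 0, and the 4 NK cell markers to 2.05 to 2.62 and 1.34 to 1.69 CPM, with Ncr1 at 0. The 5 dendritic cell markers stood at 2.63 to 3.68 CPM in control and 4.16 to 6.34 CPM with SPC, mostly Zbtb46, while the 2 CD8 T cell markers reached 2.43 CPM and the remaining sets of other cells less. In the blocked test Pecam1 (edgeR adjusted p = 0.0354) and the macrophage marker Adgre1 (adjusted p = 0.0315) were called lower with SPC and Zbtb46 (adjusted p = 0.0427) higher. Adgre1 was near the floor, at 0.410 to 0.818 CPM in control and 0.153 to 0.217 CPM with SPC. Cd68, the other tested marker of its list, went the other way (1.09 to 1.47 and 1.53 to 2.09 CPM) and was not called. The 5 macrophage and monocyte markers summed to 1.95 to 2.27 CPM in control and 1.72 to 2.30 CPM with SPC. Of the CD4 T cell markers, Cd5 was called higher in that test (edgeR adjusted p = 0.00157, and 0.0597 with group as the single term). It had 217, 203 and 210 CPM in control and 277, 265 and 263 CPM with SPC. The platelet genes Pf4 and Ppbp had no count in any library.

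Of the 53 members, 31 passed the filter and were tested, 15 had a few counts and 7 had none. Between members, levels are compared as RPKM, that is TMM-scaled CPM per kilobase of annotated exon, and within a member as CPM. In bulk RNA, fewer cells that express a gene and less of its RNA per cell cannot be told apart.

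Among alpha subunits, Gnai2, the main Gi subunit of lymphocytes, had the highest level in control cells, 99.7 ± 1.99 RPKM (SD, n = 3). Gnas, the Gs subunit, followed at 58.5 ± 1.93 RPKM, the Gi subunit Gnai3 at 55.9 ± 2.49 RPKM and Gna13, the G13 subunit, at 53.4 ± 4.47 RPKM. The control libraries of Gnas, Gnai3 and Gna13 overlapped, so their order is not resolved. These 4 genes made up 94.7% of the summed alpha subunit level. The lowest of the 4, Gna13, was 10.5 times the next alpha subunit, Gna11 of the Gq/11 class.

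The Gq/11 class was low throughout. Gna11 had 5.09 ± 0.268 RPKM in control, Gna15, a Gq-class subunit of blood cells, 2.80 ± 0.422 RPKM, and Gnaq 2.48 ± 0.185 RPKM, with Gna15 and Gnaq overlapping. Gna12, the partner of Gna13 in its class, had 3.68 ± 0.326 RPKM. Gnal, the olfactory relative of Gnas, had 0.435 ± 0.0767 RPKM, and Gnat2, the cone transducin subunit, 0.190 ± 0.0364 RPKM. Gnat2 lies 5848 bases from Gnai3 on chromosome 3.

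Gnb1 at 97.6 ± 1.20 RPKM and Gnb2 at 71.5 ± 3.79 RPKM were by far the highest beta subunits, together 98.7% of the summed beta level. Gnb5, the divergent beta subunit that pairs with R7 RGS proteins, had 1.55 ± 0.171 RPKM and Gnb4 0.738 ± 0.0736 RPKM. Of the gamma subunits, Gng10 had 32.9 ± 1.49, Gng5 23.4 ± 0.0660, Gng2 11.7 ± 1.01 and Gng12 6.96 ± 0.561 RPKM, and these 4 made up 96.6% of the gamma level. The level of Gng10 is uncertain, because 72.0% of its exon bases are also exon of Gm20503 on the same strand.

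RGS transcripts were spread more evenly over their members. Rgs19 (RZ subfamily) had 23.7 ± 0.389 RPKM, Rgs16 (R4 subfamily) 18.8 ± 3.64, Rgs10 (R12 subfamily) 16.1 ± 1.35 and Rgs1 (R4) 7.16 ± 0.0718 RPKM in control, together 80.7% of the RGS sum. Rgs16 and Rgs10 overlapped between control libraries. Rgs3 (R4) had 4.56 ± 0.364, Rgs14 (R12) 3.37 ± 0.113, Rgs2 (R4) 3.06 ± 0.877, Rgs11 (R7) 2.48 ± 0.872, Rgs9 (R7) 1.17 ± 0.503 and Rgs12 (R12) 0.968 ± 0.0603 RPKM. Control libraries of Rgs14, Rgs2 and Rgs11 overlapped, as did those of Rgs9 and Rgs12, so the order within these groups is not resolved. With SPC the RGS sum was 96.8 ± 5.00 RPKM against 81.5 ± 2.89 RPKM in control, and the alpha sum 279 ± 9.01 against 282 ± 5.82 RPKM. Rgs1 made the largest change within the RGS sum, with 17.9 ± 2.41 RPKM in SPC libraries. Of the 10 tested RGS genes, 5 had a log2 fold change above 0 and 5 below.

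These levels depend on the length used. With the longest annotated transcript in place of all exons, Gnas stood at 166 RPKM in control, beside 170 RPKM for Gnai2, and Rgs3 (10.5 RPKM) above Rgs1 (8.52 RPKM). Gnas is a complex imprinted locus, and 22.0% of its exon bases lie opposite an exon of another gene, so part of its count may belong to transcripts on the other strand where strand was not used in counting.

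**Figure D1:**
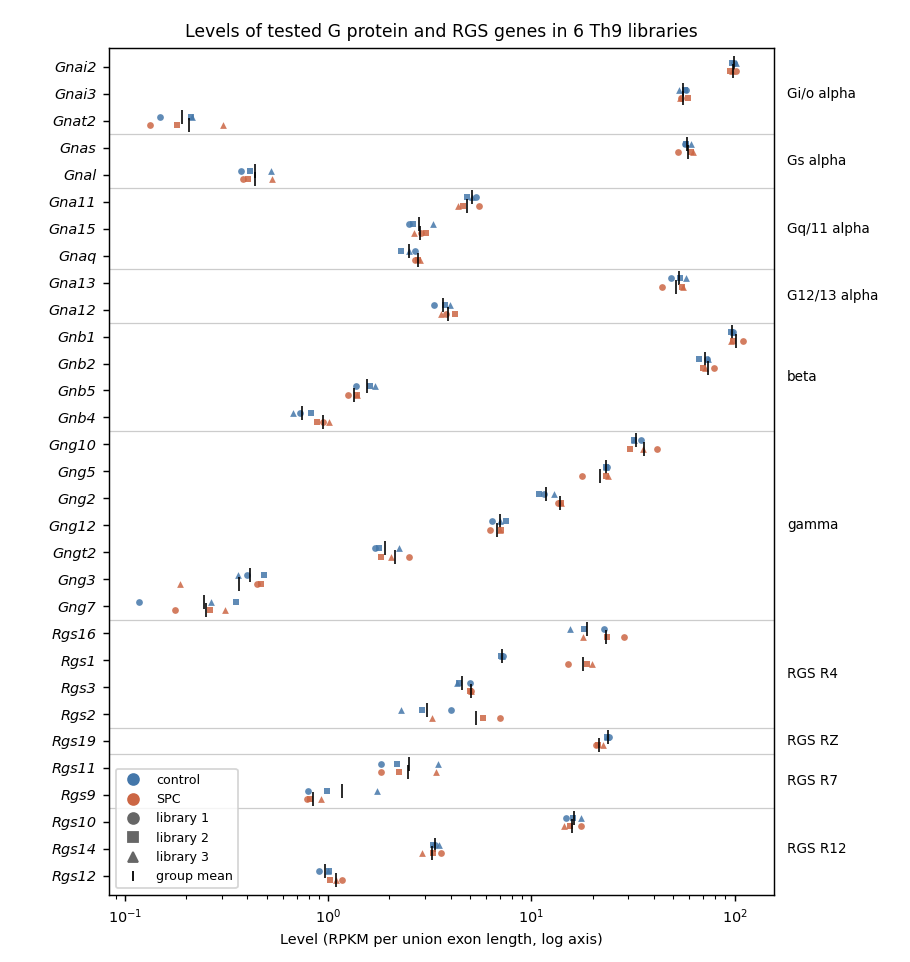
Level of each tested member in RPKM (log axis), grouped by role, with blue points for the 3 control and orange points for the 3 SPC libraries, the library number given by the shape and the group mean by a black bar. Gnai2, Gnb1, Gnb2, Gnas, Gnai3 and Gna13 lie to the right, and Rgs1 is the member with the widest gap between the groups.

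With SPC, the R4 regulator Rgs1 rose and the subunits that make up the G proteins themselves did not pass the test. The edgeR test over 12226 genes with group as the single term called 1 of 31 tested members higher, Rgs1, where 0.327% of all tested genes were called higher. It called none lower, where 0.155% of all tested genes were called lower. At an unadjusted p under 0.05 there were 4 of 31 members, all higher (Rgs1, Rgs2, Gnb4 and Gng2). Of all 12226 tested genes, 1250 were under that limit in either direction, 716 of them (5.86% of all tested) higher. DESeq2 called 1 member higher, Rgs1, and 0 lower (1.42% and 0.791% of the genes it tested). With the replicate number as a block, which compares SPC with control within each number, 3 members were called, Rgs1, Rgs2 and Rgs16, all higher and all of the R4 subfamily (4.02% of all tested genes were called higher and 3.07% lower). None was called lower with the block, where 1 lower member, Rgs9, had an unadjusted p under 0.05 (10.7% of all tested genes were lower at that limit). The median log2 fold change of the 31 members was 0.02, against 0.00 over all tested genes.

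Rgs1 encodes a small R4 regulator that is induced in activated lymphocytes and acts on Gi and Gq subunits. Its level was 50.2, 49.2 and 49.9 CPM in control libraries 1, 2 and 3 and 106, 131 and 138 CPM in the same-numbered SPC libraries. The control libraries were almost level, the highest 1.02 times the lowest, and every SPC library lay above all of them. Within numbers the rise was 2.11-fold, 2.65-fold and 2.76-fold. The log2 fold change was 1.32 ± 0.10 (SE, edgeR adjusted p = 0.0021, and 7.7e-06 with the block). Leaving out single libraries or whole numbers gave 1.24 to 1.44. In the group-only test, however, the call was lost without both libraries numbered 2 (edgeR adjusted p = 0.115), where no gene at all was called. With the block and without number 2 the value was 1.28 ± 0.10 and stayed called. No exon base of Rgs1 is shared with another annotated gene, and no 50-base window of its longest transcript occurs in a transcript of another gene. The summed markers of B cells and dendritic cells, in which Rgs1 is also known to be expressed, were higher in the SPC libraries too, at the levels given above, and their part in the result was not tested.

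Rgs2, which encodes an R4 regulator best known for its action on Gq, and Rgs16, an R4 regulator of Gi and Gq, differed between the numbers as well as between the groups. Rgs2 had 14.5, 10.5 and 8.27 CPM in control libraries 1 to 3 and 25.3, 20.9 and 11.7 CPM with SPC. The groups overlapped, since SPC library 3 was below control library 1. Within numbers Rgs2 was higher with SPC each time, by 1.74-fold, 2.00-fold and 1.41-fold. Its log2 fold change was 0.80 ± 0.28 with group as the single term (edgeR adjusted p = 0.351) and 0.79 ± 0.10 with the block (adjusted p = 0.00125). In blocked tests that each left out 1 number the value was 0.68 to 0.89 (edgeR adjusted p 1.0e-05 to 9.4e-05). Those tests keep few libraries for the terms they fit, so their p-values rest largely on dispersion shared across genes. They are not read as stronger than the 0.00125.

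Rgs16 had 53.1, 42.7 and 36.3 CPM in control and 66.6, 55.4 and 42.1 CPM with SPC. Here too the groups overlapped and each number was higher with SPC, by 1.25-fold, 1.30-fold and 1.16-fold. The log2 fold change was 0.31 ± 0.18 (edgeR adjusted p = 0.636) and with the block 0.31 ± 0.07 (adjusted p = 0.0174). Without number 2 the blocked value was 0.28 ± 0.11 and no longer called (adjusted p = 0.133). In the group-only test, leaving out 1 library moved the value to 0.14 (without SPC library 1), 0.20 (without control library 3) or at most 0.48 (without control library 1). In all, 10.1% of the exon bases of Rgs16 lie opposite exons of the predicted gene Gm28513.

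Rgs2 and Rgs16 shared the order of their libraries, number 1 highest and number 3 lowest in both groups, with at least 1.2-fold between control libraries 1 and 3. They were 2 of the 31 tested members with this order, and 4.76% of all tested genes had it. Both were called with the block alone, which favours genes that differ by number in both groups. The shared order is therefore no separate evidence of a link between them. The 250 bases before the RefSeq start sites of both genes (GRCm38.p6) are given because both were called in the blocked test and not in the group-only test. The Rgs2 stretch is chr1:144004150-144004399 on the minus strand and the Rgs16 stretch chr1:153740103-153740352 on the plus strand, both written 5′ to 3′ along the gene. Capitals mark the motifs searched, on both strands: the core of a cAMP response element (TGACG), the full element (TGACGTCA), the CCAAT box (CCAAT), the GC box (GGGCGG) and a STAT element (TTCNNNGAA).
Rgs2: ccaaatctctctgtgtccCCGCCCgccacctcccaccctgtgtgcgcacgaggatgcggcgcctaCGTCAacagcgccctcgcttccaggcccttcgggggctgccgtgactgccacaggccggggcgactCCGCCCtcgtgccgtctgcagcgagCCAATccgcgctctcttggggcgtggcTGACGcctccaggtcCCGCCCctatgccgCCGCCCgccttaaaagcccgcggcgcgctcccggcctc
Rgs16: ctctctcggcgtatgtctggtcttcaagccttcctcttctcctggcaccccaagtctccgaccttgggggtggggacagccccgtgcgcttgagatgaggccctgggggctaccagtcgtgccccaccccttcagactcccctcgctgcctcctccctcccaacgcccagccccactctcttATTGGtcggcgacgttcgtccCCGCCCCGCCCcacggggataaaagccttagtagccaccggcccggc
The Rgs2 stretch held 2 TGACG matches, 185 and 67 bases before the start, 1 CCAAT box at 94 bases and 4 GC boxes. The Rgs16 stretch held 1 CCAAT box, on the minus strand at 68 bases, and 2 GC boxes at 47 and 42 bases that share a base, and no TGACG. Of 32851 stretches of the same length before listed start sites, 17.8% hold at least 1 TGACG, 33.8% a CCAAT box and 32.7% a GC box, so none of these is rare. The Rgs2 and Rgs16 stretches were 72.4% and 66.4% G or C, against a median of 52.4% over all stretches. The shares were matched neither for this nor for the number of boxes. The full cAMP response element (1.55% of stretches) and the STAT element (7.02%) were in neither. The motifs were chosen with both sequences in view, and a match is a run of letters, not a measured site. Of the 53 members, 39 have an entry in the promoter table, and Rgs1 is not among them.

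Rgs3, the remaining R4 member tested, had 53.8, 47.5 and 46.5 CPM in control and 54.2, 54.1 and 54.3 CPM with SPC (log2 fold change 0.14 ± 0.08, edgeR adjusted p = 0.647). The 4 tested R4 members, of 10 in the set, were each higher with SPC in all 3 numbered pairs, Rgs3 by 1.01-fold in number 1. The subfamily was set apart with these values in view, so this is a description. Of all 31 tested members 8 were (21.8% of all tested genes), and 3, Rgs9, Rgs19 and Gnb5, were lower in all 3 pairs (22.0% of all tested genes).

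Of the 21 RGS members, 11 lie on chromosome 1 (mm10, GENCODE M21 positions), and expression there was uneven. Rgs2 (143999338 to 144004161), Rgs13, Rgs1 (144242296 to 144249242), Rgs21 and Rgs18 follow one another on the minus strand within 776 kb. Rgs1 had 14110 counts over the 6 libraries and Rgs2 2569, while Rgs13, a regulator of germinal centre B cells and mast cells that lies between them, had 9. Rgs21 and Rgs18, the latter known from platelets and their precursors, had no count. Rgs16 (153740349 to 153745468) had 8245 counts and its neighbour Rgs8, 40.0 kb away, had 20. Members called higher and members with next to no reads thus stood side by side.

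The other RGS subfamilies held no called member. Rgs19, an RZ regulator of Gi that is also called GAIP, had 53.9, 52.5 and 52.3 CPM in control and 46.4, 47.6 and 50.3 CPM with SPC, and was the tested member whose SPC libraries all lay below the control libraries. Its log2 fold change was -0.14 ± 0.07 (edgeR adjusted p = 0.582, and 0.255 with the block). Across all tested genes 7.8% lay apart in that direction. The R12 members Rgs10, Rgs14 and Rgs12 had log2 fold changes of -0.02 ± 0.10, -0.05 ± 0.11 and 0.17 ± 0.12 (edgeR adjusted p between 0.710 and 0.971).

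The R7 regulators Rgs9 and Rgs11, which need Gnb5 as a partner, were low and differed between numbers. Rgs11 had 7.63, 9.12 and 14.6 CPM in control and 7.69, 9.34 and 14.2 CPM with SPC, nearly equal within each number. Rgs9 had 5.06, 6.27 and 11.1 CPM in control and 5.04, 5.17 and 5.87 CPM with SPC, so that control library 3 stood above the rest. The log2 fold change of Rgs9 was -0.47 ± 0.27 (edgeR adjusted p = 0.632), -0.41 ± 0.16 with the block (adjusted p = 0.178), and with the block and without number 3 -0.14 ± 0.17. Without control library 3 alone the group-only value was -0.08 ± 0.17, while with the block and without number 1 it was called lower (-0.61 ± 0.15, adjusted p = 0.00564). Gnb5 had 4.24, 4.98 and 5.27 CPM in control and 3.89, 4.29 and 4.30 CPM with SPC (-0.21 ± 0.15, adjusted p = 0.724). Rgs9, Rgs11 and Gnb5 were among 5 members with number 3 highest and number 1 lowest in both groups and at least 1.2-fold between them in control, as were 8.48% of all tested genes, and the others were Gnal and Gnat2. Control libraries ranged over more than 1.5-fold in 4 members, Rgs2, Rgs9, Rgs11 and Gng7 (15.4% of all tested genes).

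None of the 21 tested subunit genes was called by edgeR with or without the block, and 2 of them, Gnb4 and Gng2, had an unadjusted p under 0.05 in each fit, both higher (5.86% of all tested genes with group as the single term and 10.7% with the block). Their log2 fold changes lay between -0.21 and 0.35. Gnb4 (chromosome 3, 32580332 to 32616585), the minor beta subunit, had 9.17, 10.4 and 8.55 CPM in control and 11.9, 11.2 and 12.8 CPM with SPC. The groups did not overlap and all 3 numbers were higher (0.35 ± 0.12, edgeR adjusted p = 0.316, and 0.0888 with the block). Gng2 (chromosome 14, 19872559 to 19977627), a gamma subunit common in leukocytes, had 50.5, 47.7 and 56.4 CPM in control and 59.1, 61.1 and 61.2 CPM with SPC, again apart (log2 fold change 0.23 ± 0.08, edgeR adjusted p = 0.351, and 0.0674 with the block). Of its exon bases 20.4% lie opposite exons of Gm48283. In all, 6 tested members had every SPC library above every control library (Rgs1, Rgs3, Rgs12, Gnb4, Gng2 and Gnaq), where 8.67% of all tested genes did. Of these 6, Rgs1 differed by more than 1.5-fold.

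The abundant subunits differed little between the group means. Gnai2 had 377, 369 and 384 CPM in control and 386, 358 and 366 CPM with SPC (log2 fold change -0.03 ± 0.06, edgeR adjusted p = 0.945). Gnb1 had 420, 411 and 419 CPM in control and 471, 417 and 411 CPM with SPC (0.06 ± 0.07, adjusted p = 0.872). Gna13, which acts downstream of S1P and other lysophospholipid receptors in lymphocytes, had 313, 344 and 371 CPM in control and 283, 355 and 356 CPM with SPC (-0.05 ± 0.11, adjusted p = 0.930). Gnas had 640, 645 and 679 CPM in control and 587, 683 and 701 CPM with SPC (0.01 ± 0.08, adjusted p = 0.991). In each of these 4 genes the groups overlapped, and the SE leaves room for small changes in either direction.

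Among Gq/11 subunits, Gnaq had 16.4, 14.2 and 15.5 CPM in control and 16.6, 17.2 and 17.5 CPM with SPC (0.16 ± 0.10, edgeR adjusted p = 0.669). Gng5 had 64.9, 64.5 and 64.6 CPM in control and 48.9, 64.5 and 66.1 CPM with SPC, the low value being that of SPC library 1 (-0.11 ± 0.11, adjusted p = 0.823).

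**Figure D2:**
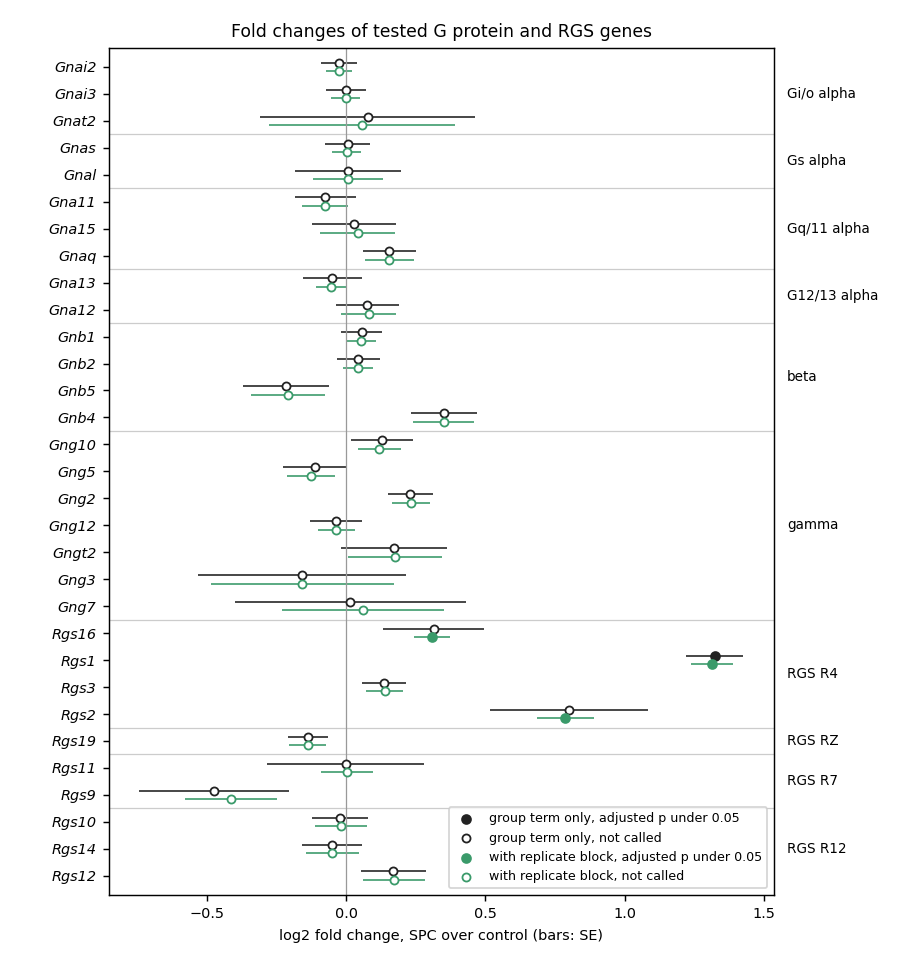
Log2 fold change (SPC over control) with its SE for the 31 tested members, in black with group as the single term and in green with the replicate block, filled where the adjusted p was under 0.05. Rgs1 is filled in both, Rgs2 and Rgs16 in the blocked test, where their bars are shorter, and no subunit gene is filled, Gnb4 lying farthest from 0 among them (0.35).

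**Figure D3:**
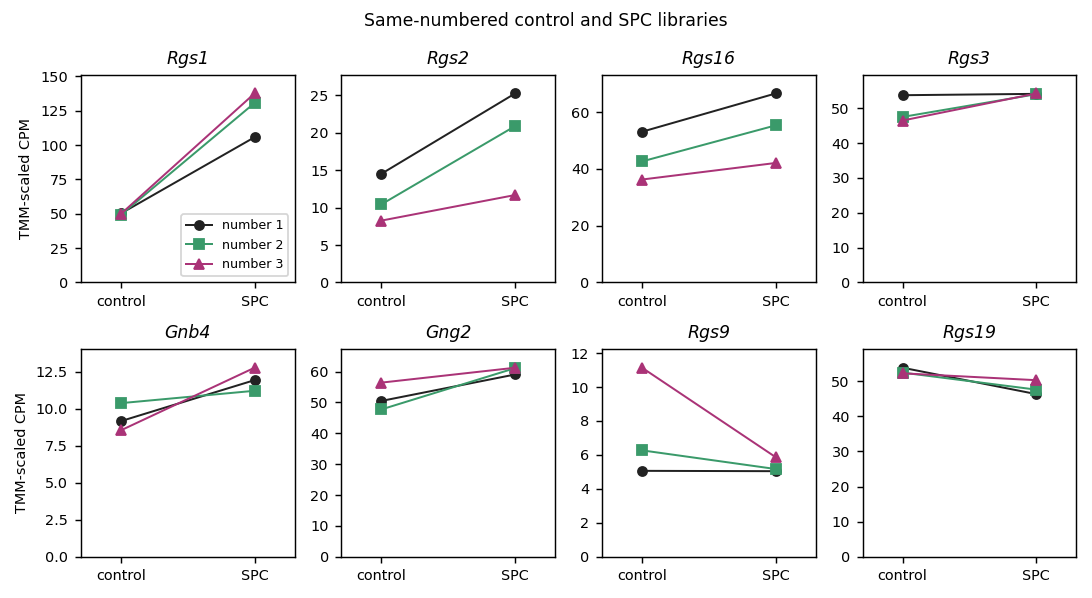
TMM-scaled CPM of 8 members, each line joining the control and the SPC library of one number. All 3 lines climb for Rgs1, and for Rgs2 and Rgs16 the lines are spread by number but climb in each, while for Rgs9 the fall is steepest in number 3.

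The 22 members that were not tested had at most 10 counts in any library. Gnaz, an alpha subunit insensitive to pertussis toxin, had the most, with 5, 10 and 6 counts in control and 7, 3 and 9 with SPC. Gnai1 had 37 counts over the 6 libraries and Gnao1, the main Go subunit of neurons, 25. The 7 members without a count were Rgs5, Rgs7, Rgs18, Rgs21, Rgs22, Gng11 and Gng13, and a count of 0 over the 6 libraries allows a level of up to 0.0184 CPM (3 counts), counting error alone. Gnat1, Gngt1, Gnb3 and Rgs4, known from retina, taste cells or neurons, had between 1 and 4 counts in all.

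The other genes of the pathway were taken from lists of effectors, receptor kinases, arrestins, regulators and receptors, 86 genes of which 60 were tested. The group-only edgeR test called 3 lower, Pik3cg, Gpr65 and Ccr8, and none higher (0.155% of all tested genes were called lower and 0.327% higher). At an unadjusted p under 0.05 there were 5 higher genes of the 60, where 5.86% of all tested genes were. The lower genes at that limit are not counted here, so the balance of directions cannot be read from it. With the block 5 were called higher and 5 lower, where 4.02% and 3.07% of all tested genes were. The median log2 fold change of the 60 genes was -0.05. Pik3cg, the catalytic subunit of the phosphoinositide 3-kinase that beta-gamma subunits activate, had 108, 121 and 130 CPM in control and 58.2, 78.6 and 67.0 CPM with SPC (log2 fold change -0.82 ± 0.12, edgeR adjusted p = 0.0358, and 8.4e-05 with the block). Its groups did not overlap. Gpr65, a proton-sensing receptor gene, had 14.8, 19.5 and 23.7 CPM in control and 5.68, 5.97 and 7.61 CPM with SPC, and Ccr8, a chemokine receptor gene, 137, 133 and 143 against 104, 96.5 and 90.3 CPM. In group-only tests none of these 3 was called without control library 2, without SPC library 2 or without both. Over the 9 group-only tests that left out a library or a number, Gpr65 was called in 6 (log2 fold change -1.75 to -1.42), Pik3cg in 2 (-0.93 to -0.71) and Ccr8 in 1 (-0.56 to -0.43).

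At the step between receptor and G protein, Adrbk1, which encodes the receptor kinase GRK2, and Arrb1, which encodes beta-arrestin 1, were called in opposite directions with the block. Adrbk1 had 390, 366 and 369 CPM in control and 471, 416 and 418 CPM with SPC (log2 fold change 0.21 ± 0.07, edgeR adjusted p = 0.333, and 0.0235 with the block). Arrb1 had 49.2, 58.7 and 95.4 CPM in control and 31.0, 43.8 and 52.3 CPM with SPC (-0.68 ± 0.26, edgeR adjusted p = 0.386, and 0.00108 with the block). The groups of Arrb1 overlapped, as SPC library 3 lay above control library 1, and each number was lower with SPC. Adcy3, the adenylyl cyclase called with the block, had 18.8, 20.2 and 18.7 CPM in control and 23.0, 24.8 and 24.2 CPM with SPC (0.32 ± 0.08, edgeR adjusted p = 0.174, and 0.0256 with the block). Gpr34 and the chemokine receptor genes Ccr6 and Ccr7 were the others called higher with the block, and Cxcr4 the other called lower. None of the 4 tested phospholipase C beta genes, 12 chaperones and non-receptor regulators or 6 other genes with an RGS domain was called in either edgeR fit.

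**Figure D4:**
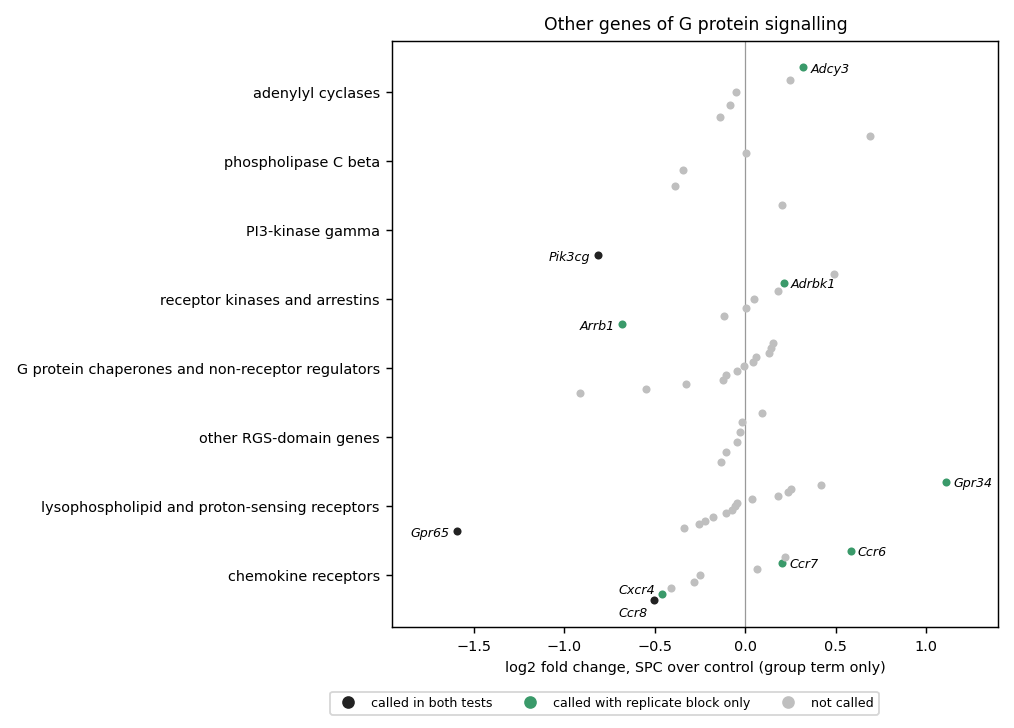
Log2 fold change (SPC over control, group as the single term) of the 60 tested pathway genes, 1 point per gene and 1 band per list, black where called in both edgeR fits, green where called with the block alone and grey where not called. Pik3cg, Gpr65 and Ccr8 are the black points, all left of 0.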

How the data were processed

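The authors deposited raw read counts per gene symbol, 1 library per file. Per the submitters' processing notes, TopHat and mm10 were used, while for the counting program, annotation and strand setting the sources used here give nothing. Counts were tested with edgeR 4.0.16 (R 4.3.3) by quasi-likelihood F test with robust dispersion, TMM scaling and filterByExpr (minimum count 10, minimum total 15), group as the single term, and Benjamini-Hochberg adjustment over all 12226 tested genes at 0.05. Each SE was taken as the size of the log2 fold change over the square root of F. Lengths and positions came from GENCODE M21 (GRCm38, the assembly of mm10), which matched 98.44% of symbols and all 53 members. Promoter sequences are from RefSeq (GRCm38.p6). The script was tested on simulated data.

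Deviations from the group mean correlated across genes between same-numbered libraries at 0.413, 0.208 and 0.508, all over 0.1, and between differently numbered ones at -0.492 to 0.0742. The numbers were therefore taken to pair the libraries, and the blocked value is given where it changes a call. This pairing was inferred from the same counts that were tested. Number 3 had the lowest total count in both groups (22002050 and 22715292), and the part of sequencing depth was not tested. P-values with group as the single term set the difference against the spread between the 3 libraries of each group. Blocked p-values set it against the spread that remains once differences between numbers are taken out. Both use dispersions shared in part across genes.

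Named are members called in either fit, up to 4 tested members per role with the highest control RPKM, the 3 untested members with most counts, and pathway genes called in either fit. Rgs13, Rgs8, Gnat1 and other low members were named after their values were seen. One pathway list fixed at the start is not reported here. Members, lists and roles were chosen with earlier results of these data known. Alternatives were DESeq2 1.42.0, other scalings and filters, and leaving out libraries.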

Additional observations from a re-analysis of the deposited data

How the results depend on the processing

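Over 18 alternatives, the count of members called higher with edgeR was 1 except with the replicate block (3), and when libraries or numbers were left out, with and without the block, it lay between 0 and 5. The 0 came without both libraries numbered 2 and without the block, where 502 genes, 2 of them members, had an unadjusted p under 0.05 and none was called. The count called lower lay between 0 and 1 on leaving out libraries or numbers, the 1 being Rgs9 in the blocked test without number 1. Of all tested genes 59 were called, 866 with the block, 279 by DESeq2, 147 without a filter on low counts, 0 to 66 on leaving libraries or numbers out of the group-only test, and 2112, 699 and 563 in the blocked test without number 1, 2 and 3. Leaving out control or SPC library 2 gave 6 each. Blocked tests without 1 number keep few libraries for the terms fitted, so their p-values rest largely on dispersion shared across genes. Of the pathway lists 3 were called, 10 with the block, 5 by DESeq2, 0 to 3 on leaving out libraries or numbers, and 17, 8 and 7 in the blocked test without number 1, 2 and 3. For Rgs1, Rgs2, Rgs16, Rgs3, Rgs9, Rgs19, Gnb4 and Gng2 none of 144 alternative values changed sign, 132 stayed on their side of the threshold, 11 blocked values were newly called, and the Rgs1 call was lost in 1. Of those 11, Gng2, Rgs3 and Rgs9 were called in the blocked test without number 1 alone and Gnb4 in that without number 2 alone. Among the other tested members, with log2 fold changes from -0.21 to 0.17, 16 changed sign in at least 1 alternative. The cause of these shifts was not tested. With the longest transcript as length, 21 of 28 control levels moved by more than the SD of the control libraries. Within their role, each RGS subfamily being its own, 2 tested members (Rgs1 and Rgs3) changed rank, and TPM changed none. Across subfamilies Rgs10 (31.3 RPKM) then stood above Rgs16 (18.8 RPKM), and Gnb1 (133 RPKM) came close to Gnb2 (131 RPKM).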
